A study of Arabidopsis thaliana with 3 samples.

Results

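The transcriptome of T12 seedlings was compared with that of wild-type (WT) seedlings of Arabidopsis thaliana, the thale cress. T12 is the milder, by root growth, of a pair of gip1 gip2 double mutant populations in the study, and WT is the cross of the accessions Ws and Col-0. The mutants come from crossing the gip1 line GABI_213D01 with the gip2 line FLAG_36406. All seedlings were 9 days old, and RNA was taken from whole seedlings, depleted of ribosomal RNA and sequenced with strand kept. Each group had 3 libraries, described as individual replicates. The p-values measure only the spread between libraries, pooled over WT, T12 and the 3 libraries of T34, the other mutant population. The comparison covers the 30271 genes of the deposited table for T12 and WT, of which 20871 had enough reads to be tested. The labels do not give the hour of harvest, and both groups mix 2 accessions, so that alleles of Ws and Col-0 that differ between the groups cannot be told apart from the mutations.

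GIP1 and GIP2 are small, nearly identical proteins that bind the gamma-tubulin complex, the particle from which plant microtubules grow, and sit on the mitotic spindle and at the surface of the nucleus. Plants lacking both are short, with disordered microtubules and misshapen nuclei. Much of a seedling's transcriptome also follows the circadian clock, the sugar supply and the hormone jasmonate, so the genes of these programmes are described with those of the cytoskeleton.

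The descriptions of the samples list the library called WT replicate 1 under both WT and T34, and list 1 of the 3 T34 libraries nowhere. WT replicate 1 was taken as WT because both deposited tables hold it beside the other WT libraries. Without it 4923 genes were called higher and 3458 lower, against 4827 and 3555 with it, and 7428 of the 8382 calls were kept, each in the same direction. Of 370 genes named for size or called in the lists, families left out, that were still tested, 351 kept their call and 0 reversed.

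The libraries held 20963358 to 30438933 reads. Ribosomal RNA took 22.5, 95.7 and 49.1% of the reads in WT replicates 1 to 3 and 1.76, 0.938 and 0.971% in T12. This left 12336970, 645093 and 6282456 reads of other nuclear genes in WT and 13120769 to 15270092 in T12, so WT replicate 2 is shallow, and 1 of its reads is worth 11.7 normalized counts against 0.561 to 1.27 in the other libraries of both groups. Chloroplast genes took 39.3 to 52.8% of the reads other than ribosomal RNA in WT and 33.1 to 35.4% in T12, a difference with an exact two-sided permutation p of 0.1, the smallest that 3 against 3 libraries can give. All values below are normalized counts, that is reads divided by the authors' size factor, in the order of replicates 1, 2 and 3, and differences are T12 minus WT on the scale of log2(normalized count + 1), ± the standard error.

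Of the 20871 genes tested with limma, 40.2% were called at an adjusted p under 0.05, 4827 (23.1%) higher and 3555 (17.0%) lower in T12. The median difference over all tested genes was 0.06, with quartiles of -0.37 and 0.67. Rises were larger than falls: the median was 1.31 for genes called higher and -0.84 for genes called lower, and 698 rises but 151 falls reached 3 on the log2 scale. Of those 698 rises, 278 are of genes with 0 reads in WT replicate 2. The 3 T12 libraries lay wholly above the 3 WT libraries for 5898 of all tested genes and wholly below them for 4801, and 4743 and 3496 of these were called higher and lower. Other scalings moved the balance of rises and falls: upper quartile factors gave 4183 higher and 4729 lower, and scaling to nuclear reads 3989 and 5082. A fit of the 6 WT and T12 libraries alone, called the fit of 6 libraries below, gave 3781 higher and 2696 lower. The filter on low values asks for 10 normalized counts in at least 3 of the 9 libraries, those of T34 included. A gene low in WT, or low in the mutants, thus passed only through libraries where it is higher. The shares of the gene lists below therefore cover the tested members alone.

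GIP2 (AT1G73790), 1 of the mutated genes, had 4, 1 and 0 reads in the WT libraries and 1 read in each T12 library. It was too low to be tested and gives no check of the labels, and GIP1 is not analysed here. Around the 2 loci the share of called genes was near that over all genes. Of 109 tested genes among the 200 nearest neighbours of GIP1 on chromosome 4, 44.0% were called, 23 higher and 25 lower, and of 163 around GIP2 on chromosome 1 it was 38.7%, 44 higher and 19 lower.

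Tubulin genes, which encode the building blocks of microtubules, were lower or did not pass the test. Of 21 tested tubulin and gamma-tubulin complex genes, 10 fell (47.6%) and 0 rose, beside 17.0% lower and 23.1% higher over all tested genes. Their median was -0.33, inside the quartiles of all tested genes, -0.37 and 0.67. TUB5, a beta-tubulin gene, had 2666, 3062 and 3267 normalized counts in the WT libraries and 581, 632 and 582 in the T12 libraries. The groups were far apart, with little spread inside each, and the difference was -2.32 ± 0.13 (limma adjusted p = 3.40e-06), or 4.99-fold lower. Of the other beta-tubulin genes, TUB4, TUB6, TUB8 and TUB9 fell by less, with differences of -0.78, -0.95, -0.76 and -0.98. TUB1, TUB2, TUB3 and TUB7 did not pass the test. The neighbouring alpha-tubulin genes TUA3 and TUA5 changed by -1.06 and -1.35, while TUA1, TUA2, TUA4 and TUA6 lay between -0.26 and 0.25. TUA3 and TUA5 are near-identical, as are TUB2 and TUB3, so reads may be split between the members of each pair. In the gamma-tubulin complex, the differences were small: AT5G17410, of the family of complex core proteins, was at -0.38 ± 0.10, GCP3 at -0.67 ± 0.19 and NEDD1, a targeting subunit, at -0.46 ± 0.10, and all passed. The gamma-tubulin genes TUBG1 and TUBG2 themselves were at -0.09 and -0.04 and did not pass.

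Clock genes moved in opposite directions by their phase. The plant clock is a loop in which the morning factors CCA1 and LHY repress genes that peak later in the day, and those in turn repress the morning genes. Of 12 morning-phased genes, 9 rose and 0 fell in T12 (median 2.92), and of 15 day- and evening-phased genes, 13 fell and 0 rose (median -2.34), beside 23.1 and 17.0% over all tested genes. Promoters of evening genes often hold the evening element AAAATATCT, a site that CCA1 and LHY bind. On either strand it lay within the 300 bases before the start of 6 of the 15 day and evening genes and of 0 of the 12 morning genes, beside 817 of the 29974 nuclear genes of the table with such a window (2.73%), 4.78% of genes called lower and 2.25% of those called higher. These windows are shown for PRR5, FKF1, TOC1 and LUX, genes that fell, because they carry the element. They are from RefSeq's TAIR10.1 assembly of Col-0, each 5′ to 3′ on the strand of its gene and ending at the base before the annotated start, with the element in capitals on either strand (AAAATATCT or AGATATTTT).
PRR5, chr5:8358547-8358846, minus strand: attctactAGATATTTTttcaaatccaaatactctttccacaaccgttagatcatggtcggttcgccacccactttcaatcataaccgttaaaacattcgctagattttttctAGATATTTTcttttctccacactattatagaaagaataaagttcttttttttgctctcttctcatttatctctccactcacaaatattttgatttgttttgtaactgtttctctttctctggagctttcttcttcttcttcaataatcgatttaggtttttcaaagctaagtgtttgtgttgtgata
FKF1, chr1:25508339-25508638, plus strand: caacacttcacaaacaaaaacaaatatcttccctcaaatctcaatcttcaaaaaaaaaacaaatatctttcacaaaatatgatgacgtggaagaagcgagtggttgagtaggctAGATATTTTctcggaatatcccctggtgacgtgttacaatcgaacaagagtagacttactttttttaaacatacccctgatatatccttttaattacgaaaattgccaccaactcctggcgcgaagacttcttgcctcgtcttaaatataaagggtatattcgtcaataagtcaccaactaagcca
TOC1, chr5:24674663-24674962, plus strand: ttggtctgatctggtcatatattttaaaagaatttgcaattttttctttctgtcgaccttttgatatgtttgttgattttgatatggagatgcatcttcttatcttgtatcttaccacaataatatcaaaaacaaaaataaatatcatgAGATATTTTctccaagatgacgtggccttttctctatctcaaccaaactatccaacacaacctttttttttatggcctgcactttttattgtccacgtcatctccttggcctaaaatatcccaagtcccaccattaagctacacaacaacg
LUX, chr3:17182742-17183041, plus strand: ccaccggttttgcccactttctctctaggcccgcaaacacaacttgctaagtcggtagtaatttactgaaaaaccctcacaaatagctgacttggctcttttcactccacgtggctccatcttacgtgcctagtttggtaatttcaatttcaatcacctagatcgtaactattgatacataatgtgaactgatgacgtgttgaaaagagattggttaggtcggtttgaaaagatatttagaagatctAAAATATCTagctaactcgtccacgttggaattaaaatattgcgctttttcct
PRR5 holds 2 matches, and FKF1, TOC1 and LUX hold 1 each. A match says only that these letters are present.

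Among the morning genes, CCA1 had 31.9, 93.5 and 51.0 normalized counts in the WT libraries and 1572, 1865 and 1672 in the T12 libraries. Its difference was 4.96 ± 0.31 (adjusted p = 5.84e-06), or 31.2-fold. LHY, its partner, had 36.9, 152 and 33.1 in WT and 3192, 3075 and 3058 in T12 (5.74 ± 0.47). In both genes WT replicate 2 was the highest WT library and still more than 10-fold below the lowest T12 library. RVE8, an activator of evening genes from the same family, had 14.1, 23.4 and 16.6 in WT and 596, 719 and 650.0 in T12 (5.13 ± 0.17). The LNK coactivators, which work with RVE8, also rose, LNK2 from 150.5, 280.5 and 229 to 2692, 2836 and 2387, LNK3 by 4.29, LNK1 by 2.77 and LNK4 by 1.74. PRR9, the first of the pseudo-response regulators to peak in the day, rose by 3.07 and RVE1, a factor linking the clock to auxin, by 2.11. The groups did not overlap for any of these 9 genes, as for 4743 of the 4827 genes called higher. RVE2, RVE4 and RVE6 were at 0.55, 0.59 and 0.34, with overlapping groups.

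On the later side of the loop, PRR5, a repressor of CCA1, had 543, 573 and 622 normalized counts in the WT libraries and 46.8, 48.7 and 40.4 in the T12 libraries, a difference of -3.65 ± 0.15 (adjusted p = 1.01e-06). TOC1 (annotated as APRR1), the evening repressor, had 2132, 2513 and 2317 in WT and 431, 433 and 384 in T12 (-2.48 ± 0.10). COR27, a cold- and light-regulated clock repressor, had 710.0, 736 and 842 in WT and 12.6, 9.62 and 11.8 in T12 (-5.96 ± 0.26), and FKF1, the blue-light receptor that times flowering, 493, 643 and 663 in WT and 14.3, 5.77 and 11.8 in T12 (-5.76 ± 0.30). All 3 T12 libraries were below all 3 WT libraries in each of these genes, and WT replicate 2 was within or close to the range of the other 2. Groups without overlap were found for 3496 of the 3555 genes called lower. The evening complex holds ELF3, ELF4 and LUX. ELF4 went from 53.4, 105 and 42.1 to 3.99, 4.49 and 1.68 (-3.91 ± 0.52), with 9 reads behind the WT replicate 2 value, while ELF3 changed by -1.92 and LUX by -2.34. PRR3 changed by -3.78, GI, the partner of FKF1, by -1.77, PRR7 by -1.34 and BOA, a relative of LUX, by -1.26. ZTL, the FKF1 relative that marks TOC1 for breakdown, was at -0.41, a call lost without WT replicate 3, T12 replicate 1 or T12 replicate 2. LKP2 and CHE did not pass, at -0.45 and -0.58.

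**Figure D1:**
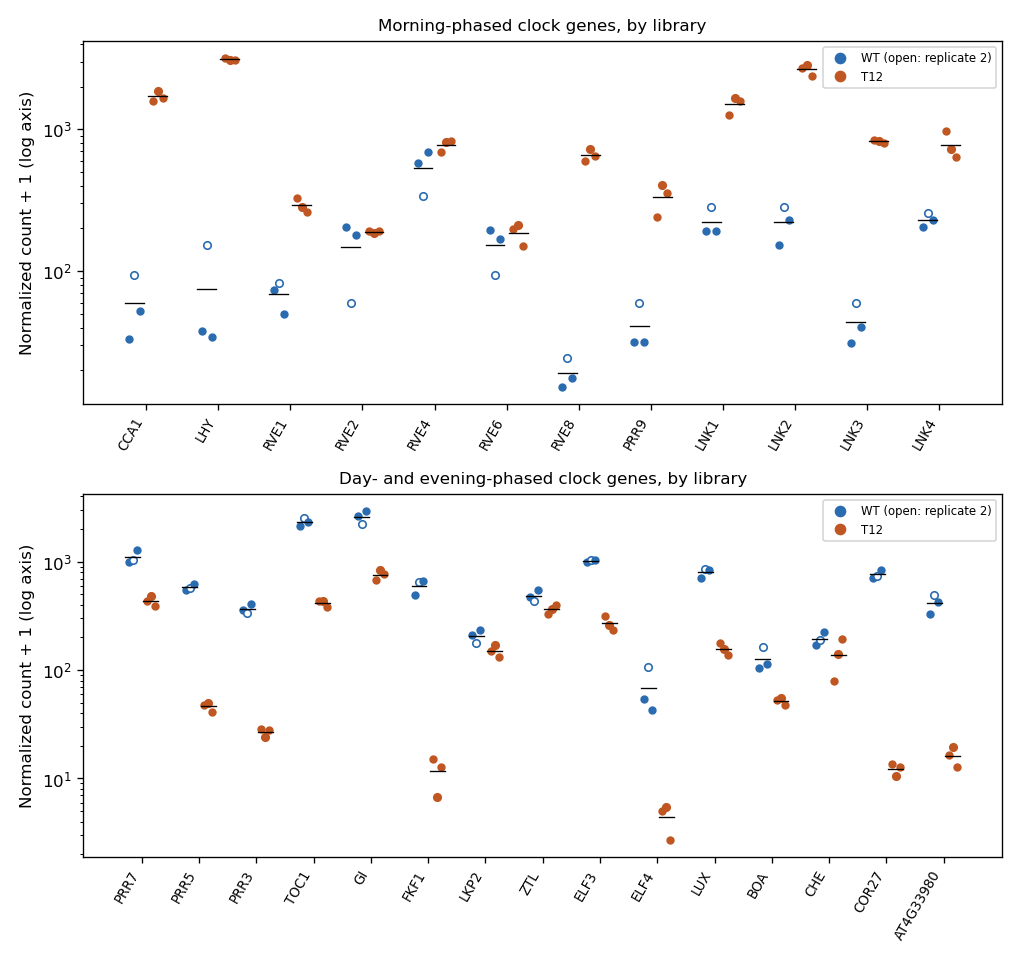
Normalized count + 1 on a log axis for 12 morning-phased (top) and 15 day- and evening-phased clock genes (bottom), 1 point per library, with bars at the group means and WT replicate 2 as an open point. T12 lies above WT in 9 morning genes and below it in 14 later genes, 13 of which passed the test.

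Genes that plants switch on when sugar runs short were mostly lower in T12. In that state the kinase SnRK1 drives breakdown of amino acids and slows growth, and the marker genes used here are known from dark or sugar-starved leaves. Of 20 markers, 16 fell (80%) and 4 rose (20%), with a median of -2.25, beside 17.0% lower and 23.1% higher over all tested genes. All 4 class II trehalose phosphate synthase genes, TPS8 to TPS11, fell, with TPS10 at -1.58. TPS11 was at -1.19, a call lost without T12 replicate 2 or 3. AT2G33830, of the dormancy-associated family and annotated as DRM2, had 10265, 11758 and 11379 normalized counts in the WT libraries and 25.1, 55.1 and 30.8 in the T12 libraries. That was the largest fall by the rule for named genes, -8.27 ± 0.27 (adjusted p = 7.47e-07), and rests on 1006 reads in WT replicate 2. BT2, a scaffold protein that responds to sugar and nitrogen, had 3758, 4289 and 4892 in WT and 93.0, 82.1 and 95.3 in T12 (-5.56 ± 0.15). SEN1, a gene induced in dark-treated leaves, had 8715, 12529 and 13311 in WT and 585, 770.1 and 514 in T12 (-4.20 ± 0.20). The groups did not overlap in any of these 3 genes, as in 3496 of the 3555 genes called lower. ASN1, the asparagine synthetase of starved tissue, went from 7453, 7223 and 10646 to 892, 999 and 832 (-3.20 ± 0.18). The enzymes of branched-chain amino acid breakdown fell together: BCAT-2, the aminotransferase, was at -3.96, MCCA at -3.17, DIN4 at -2.36 and BCE2 at -1.02. AKINBETA1, a SnRK1 subunit, was at -3.20, DYL1, a relative of AT2G33830, at -5.47, and the raffinose synthase-like gene DIN10 at -3.83.

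The 4 markers that rose were DIN2, a beta-glucosidase gene, DIN9, DIN11 and EXL1. DIN2 had 35.6, 70.1 and 24.2 in WT and 877, 233 and 2346 in T12, so the 3 T12 libraries differed 10-fold among themselves though all lay above WT (4.28 ± 0.74). DIN9, a mannose phosphate isomerase gene, rose by 1.93, DIN11 by 3.48 and EXL1 by 2.26, with 2 or 3 reads each in WT replicate 2.

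**Figure D2:**
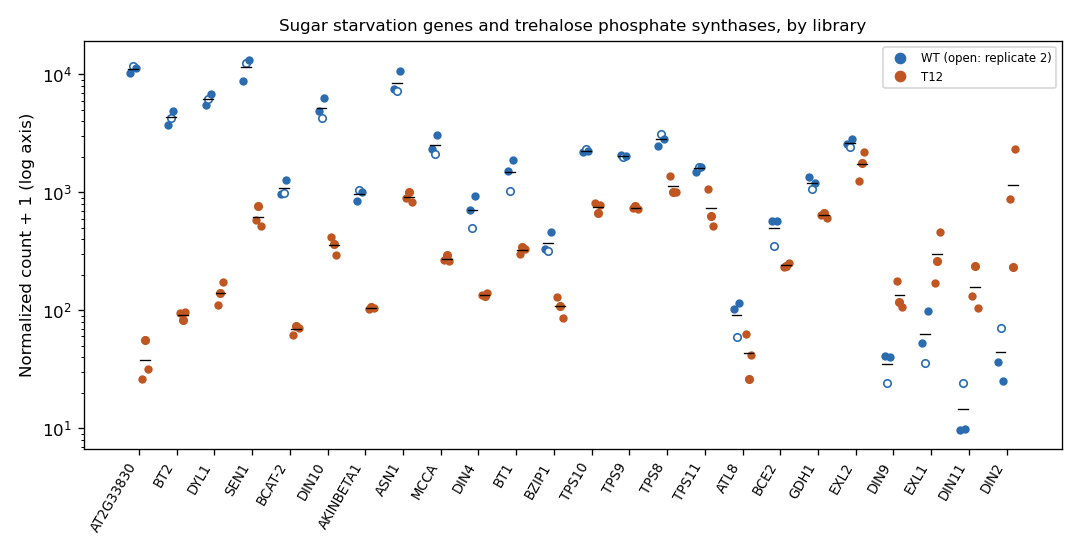
Normalized count + 1 on a log axis for 20 sugar starvation markers and 4 trehalose phosphate synthase genes, 1 point per library, ordered by difference, with bars at the group means. T12 is below WT in the first 20 genes, with 1 overlap (ATL8), and above it in DIN9, EXL1, DIN11 and DIN2.

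Starch genes moved in both directions. Of 17 starch breakdown genes 10 fell (58.8%) and 5 rose (29.4%), and of 12 synthesis genes 7 rose (58.3%) and 3 fell (25%). Over all tested genes 23.1% were called higher and 17.0% lower. GBSS1, the synthase that makes amylose and a known target of CCA1 and LHY, had 79.8, 140.2 and 121 in WT and 2630.2, 2094 and 2722 in T12 (4.46 ± 0.20, or 22.1-fold). APL3, a large subunit of the first committed enzyme, rose by 3.06. In breakdown, the cytosolic phosphorylase PHS2 had 2248, 2699.8 and 2835 in WT and 451, 439 and 409 in T12 (-2.58 ± 0.11), and AMY3, an alpha-amylase of the chloroplast, 1257, 1484 and 1666 in WT and 273, 283 and 269 in T12 (-2.40 ± 0.12). The dikinases SEX1 and PWD, which phosphorylate starch so that enzymes can reach it, were at -1.86 and -1.73. These beta-amylase genes went the other way: BAM1 rose by 2.18, CT-BMY by 1.18 and BAM5 by 4.91. The rises of BAM9 (0.54) and APL1 (0.88) lost their call with upper quartile or nuclear read scaling.

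Light signalling genes were split. Of 6 photoreceptor genes 4 fell (66.7%) and 2 rose (33.3%), beside 17.0% lower and 23.1% higher over all tested genes. PHYA was at -1.03, CRY1 and CRY2 at -0.86 and -0.95 and PHOT1 at -1.15, while PHYB rose by 1.27 and PHOT2 by 0.87. The HY5 group, which drives light-induced genes, rose, with HY5 at 1.48, its homologue HYH from 13.5, 0 and 12.7 to 245, 223 and 205 (5.26 ± 0.86) and SPA1, a repressor of the pathway, at 1.56. Among shade genes, PIL1 had 33.8, 93.5 and 53.5 in WT and 1331, 1483 and 675 in T12 (4.29 ± 0.50) and HB-2 rose by 2.75, whereas PIF1 was at -1.29 and PIF4 at -0.78. CDF1, a repressor of flowering that FKF1 marks for breakdown, rose from 65.7, 58.4 and 87.9 to 167, 251 and 300.03 (1.73 ± 0.29). The rises of PIF3 (0.75) and PIF7 (1.04) were lost without WT replicate 1 or T12 replicate 1, that of PIF3 also without either other T12 replicate and that of PIF7 without WT replicate 3. Of 4 PIF and shade genes called higher, 2 were left in the fit of 6 libraries. Both CO and FT, the flowering switches, had too few reads to test.

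Photosynthesis genes were called in both directions. Of 20 antenna genes 6 rose and 6 fell (median 0.14), 30% each way, and of 25 photosystem subunit genes 3 rose (12%) and 6 fell (24%, median -0.27), beside 23.1% higher and 17.0% lower over all tested genes. With scaling to nuclear reads 2 subunit genes rose and 10 fell, the falls among photosystem I subunits going from 4 to 6 and those among photosystem II subunits from 2 to 4. The fit of 6 libraries left 6 antenna rises and 2 falls, and 2 subunit rises and 3 falls. Weighting each library by limma array weights gave 7 antenna rises and 9 falls, and 3 subunit rises and 14 falls. Several of these counts also turned on 1 library. Of 3 falls among photosystem I antenna genes 1 was left without T12 replicate 1 or 2, and of 3 among photosystem II antenna genes 1 was left without T12 replicate 1. The 4 falls among photosystem I subunits became 7 without WT replicate 1 and 2 without WT replicate 3, T12 replicate 2 or T12 replicate 3. Among photosystem II subunits the 2 rises became 4 without WT replicate 3 and the 2 falls 4 without WT replicate 2. The main antenna gene CAB1 had 49016, 69773 and 86052 in WT and 30733, 38341 and 39829.9 in T12 (-0.88 ± 0.24), and LHB1B1 7623, 9058 and 14500.1 in WT and 2674, 2117 and 3089 in T12 (-1.95 ± 0.23). LHCB2.3, of another antenna family, rose from 309.5, 409 and 547 to 2880.1, 2528 and 3905 (2.89 ± 0.24), and LHCB2.2 by 1.59. CAB1, CAB2 and CAB3 are near-identical, so their counts are uncertain, and the call of CAB1 was lost without T12 replicate 1. Of 19 Calvin cycle genes 10 rose and 1 fell (median 0.46). RCA, the activase of Rubisco, went from 7608, 9712 and 12006 to 19729, 20699.6 and 23358 (1.14 ± 0.18), and FBA1, an aldolase gene, rose by 1.56. In photorespiration, which recycles the side product of Rubisco, 7 of 13 genes rose and 2 fell, GLDP1, a glycine decarboxylase subunit, rising by 1.06 and GLYK, the last enzyme, at -1.39.

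Of 16 chlorophyll synthesis genes 4 rose and 5 fell, and the 25% that rose is near the 23.1% over all tested genes. HEMA1, the first and limiting enzyme, rose by 1.41, and GUN5, the large subunit of magnesium chelatase, had 5289, 6299 and 7573 in WT and 15366, 15289.5 and 17470.1 in T12 (1.34 ± 0.15). Genes of the light-dependent step were split: PORB had 6925, 7889 and 9201 in WT and 1911, 1645 and 1567 in T12 (-2.22 ± 0.15) and PORA was at -3.29 ± 0.76, while PORC was at 0.57, a call lost with upper quartile or nuclear read scaling. CLH1, a chlorophyllase gene also induced by jasmonate, had 27.0, 58.4 and 43.3 in WT and 2211, 1179 and 561 in T12 (4.76 ± 0.47), and NYC1, a chlorophyll b reductase gene, was at -1.78 ± 0.13. Of 12 tested genes of leaf ageing and chlorophyll breakdown, 8 rose and 2 fell (median 1.14). SAG13 had 0, 11.7 and 1.27 in WT and 67.9, 100.03 and 342 in T12, with few reads in WT (5.45 ± 0.88), and SAG14 (annotated as BCB), a copper-binding protein gene, had 32.6, 164 and 28.0 in WT and 1441, 1213 and 1249 in T12 (4.58 ± 0.55). NAP, a factor that promotes leaf ageing, went from 159, 175 and 181 to 86.7, 102 and 83.6 (-0.92 ± 0.14), and SAG12, the usual marker of late ageing, was too low to test in both groups.

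Jasmonate genes rose nearly throughout the pathway. Jasmonate is a wound and defence hormone made from membrane lipid in plastid and peroxisome; its active form removes the JAZ repressors and so frees MYC factors, which switch on defence genes and, in feedback, the JAZ genes. Of 45 tested members 41 rose (91.1%) and 1 fell (2.22%), beside 23.1% higher and 17.0% lower over all tested genes. Their median was 4.18, beside 0.06 for all tested genes. Of 1 further listed gene, TPS03, too few reads were present to test it, and MYC2 is not analysed here.

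In synthesis, 14 of 15 genes rose. LOX2, the plastid lipoxygenase, had 330.4, 1017 and 572 normalized counts in the WT libraries and 24999, 15078 and 12968 in the T12 libraries, a difference of 4.88 ± 0.38 (adjusted p = 1.97e-05). LOX3 and LOX4 rose by 6.27 and 6.08, AOS, the next enzyme, by 3.86, and AOC3, a cyclase, by 5.01. OPR3, the peroxisomal reductase, had 173, 374 and 167 in WT and 4544, 4446 and 3791 in T12, with WT replicate 2 the highest of WT. T12 replicate 1 was the highest T12 library for LOX2, AOS and AOC1 to AOC3. The groups did not overlap for any of them, as for 4743 of the 4827 genes called higher. LOX6 rose by 1.08, AOC4 by 0.71 and JAR1, which makes the active conjugate, by 1.03, a call lost with upper quartile or nuclear read scaling and without WT replicate 2, WT replicate 3, T12 replicate 1 or T12 replicate 2. DAD1 did not pass. All 5 turnover genes rose, CYP94B3 and CYP94C1, which oxidise the active conjugate, by 5.38 and 5.43, and JOX3 (annotated as JRG21) and AT5G05600, which hydroxylate jasmonate, by 6.23 and 4.91.

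Of 12 JAZ repressor genes 11 rose. The G-box CACGTG, a site bound by MYC factors and by others such as PIF and HY5, lay in the 300 bases before the start of 5 of the 12 JAZ genes, beside 6.79% of the 29974 nuclear genes, 11.1% of genes called higher and 6.34% of those called lower. It was also in 6 of the 12 morning clock genes. The windows of JAZ8 and JAZ7 are shown because these genes carry the box close to the start, with the box in capitals (TAIR10.1, RefSeq, 5′ to 3′ on the gene's strand).
JAZ8, chr1:10596052-10596351, plus strand: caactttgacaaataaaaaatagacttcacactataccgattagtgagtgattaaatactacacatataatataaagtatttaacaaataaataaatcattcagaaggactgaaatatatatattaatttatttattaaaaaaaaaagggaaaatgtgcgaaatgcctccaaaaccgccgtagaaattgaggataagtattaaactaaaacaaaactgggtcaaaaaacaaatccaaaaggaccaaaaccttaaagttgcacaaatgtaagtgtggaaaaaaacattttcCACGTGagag
JAZ7, chr2:14572730-14573029, plus strand: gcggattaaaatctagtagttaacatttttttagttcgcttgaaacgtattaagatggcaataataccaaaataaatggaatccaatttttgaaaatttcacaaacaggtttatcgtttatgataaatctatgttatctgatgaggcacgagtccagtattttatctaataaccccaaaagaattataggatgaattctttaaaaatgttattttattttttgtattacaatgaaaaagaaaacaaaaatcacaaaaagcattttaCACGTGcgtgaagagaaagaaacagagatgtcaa
JAZ8 had 0.614, 11.7 and 1.27 normalized counts in the WT libraries and 438, 403 and 432 in the T12 libraries, from 1 read in each WT library. The size of its difference, 6.88 ± 0.63, is therefore loosely set, but all T12 libraries held 628 or more reads. JAZ7 had 14.7, 46.7 and 16.6 in WT and 664, 659 and 752 in T12 (4.87 ± 0.35), and JAZ10, a feedback repressor, 21.5, 129 and 20.4 in WT and 2805, 2185 and 1904 in T12 (5.84 ± 0.60). JAZ1, better covered in WT, had 213, 397 and 178 in WT and 5781, 4957 and 5822 in T12 (4.47 ± 0.25). JAZ3 and JAZ12 rose by 1.94 and 0.77, and JAZ4 was at 0.38 with overlapping groups.

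The transcription factors moved in both directions. MYC3 fell, from 678, 1122 and 696 to 526, 531 and 529 (-0.61 ± 0.18), a call lost when any T12 replicate was left out, and MYC4 rose by 0.67. JAM1 (annotated as AIB), a factor that opposes MYC action, had 172, 292 and 249 in WT and 1819.8, 2447 and 2173 in T12 (3.19 ± 0.19). Among outputs, all 8 tested genes rose. TAT3, a tyrosine aminotransferase gene, had 6.14, 152 and 7.65 in WT and 5402, 3836 and 3130.4 in T12 (7.57 ± 0.97), with WT replicate 2 at 13 reads standing above the other WT libraries. VSP2, a storage protein gene used as a wound marker, had 77.4, 175 and 111 in WT and 1424, 1256 and 1433 in T12 (3.57 ± 0.24), and NATA1, which acetylates ornithine, rose by 6.27.

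**Figure D3:**
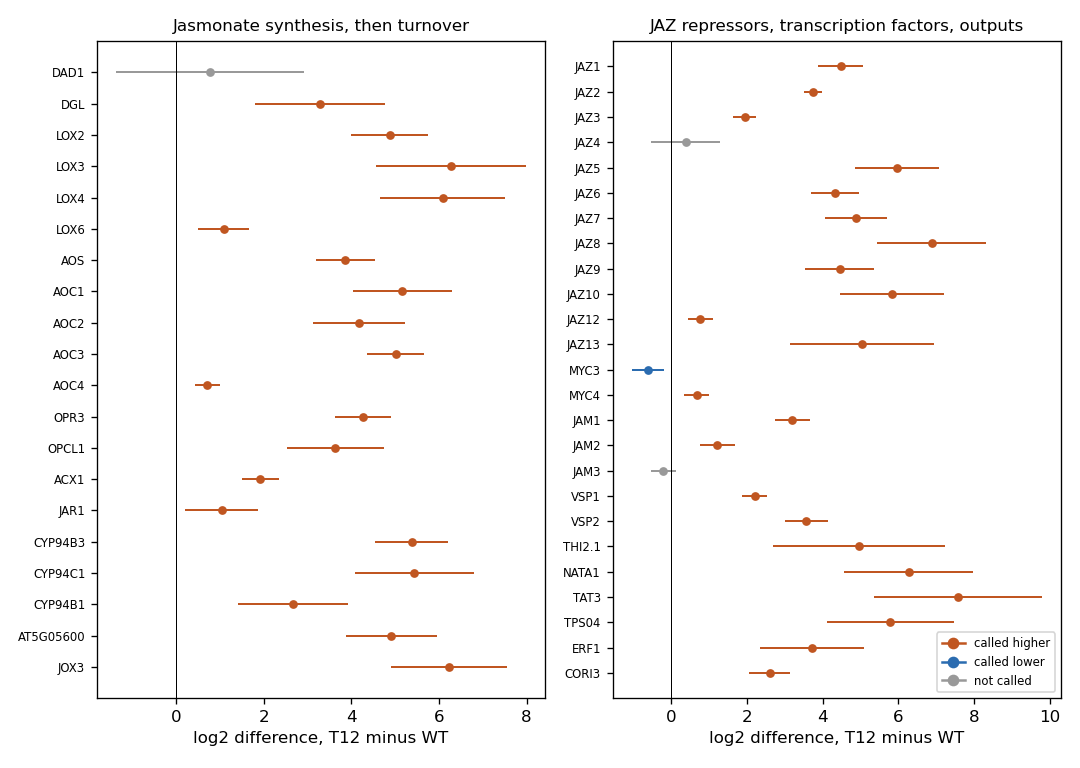
Differences T12 minus WT on the log2 scale for the tested jasmonate genes by role, with 95% confidence intervals from limma and coloured by call. Of the 45 genes 41 lie to the right of 0 and passed the test, and MYC3 is the 1 called lower.

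Genes of tryptophan, camalexin, glucosinolates and sulfur rose in T12. Tryptophan feeds camalexin and indole glucosinolates, defence compounds of this plant family, while aliphatic glucosinolates come from methionine, and all of these need sulfur. Of 15 tryptophan and camalexin genes 14 rose (median 2.58), of 15 aliphatic glucosinolate genes 14 rose (median 2.59), and of 20 sulfate genes 16 rose (median 2.61), with 0 falls in the 3 lists. Over all tested genes 23.1% were called higher and 17.0% lower. ASA1, the entry enzyme of tryptophan synthesis, had 259, 351 and 269 normalized counts in the WT libraries and 2540.0, 1553 and 1728 in the T12 libraries (2.70 ± 0.28). CYP79B2, which turns tryptophan into the oxime shared by both indole branches, had 756, 865 and 545 in WT and 4641, 3638 and 4575 in T12 (2.58 ± 0.18). CYP71A13, of camalexin synthesis, had 1.23, 0 and 1.27 in WT and 95.9, 156 and 167 in T12, with 0 reads in WT replicate 2 (6.32 ± 0.42). It was under 10 normalized counts in every WT library, and passed the filter through mutant libraries alone. Its near-identical neighbour CYP71A12 rose by 6.38. PAD3, the last camalexin enzyme, had 82.9, 58.4 and 63.7 in WT and 349, 317 and 1104 in T12, so T12 replicate 3 stood above the other 2 (2.86 ± 0.43).

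Of the aliphatic branch, the regulator MYB29 rose by 3.86 from 0 reads in WT replicate 2, while MYB28, its partner, was at 0.14 and did not pass. All 13 enzymes rose, BCAT4, the first, from 156, 234 and 77.7 to 1108, 1179 and 1028 (2.95 ± 0.32), the chain-elongating MAML (IMS2) by 3.11, CYP79F2 by 3.07 and the sulfotransferase SOT17 by 3.12. In sulfate assimilation, APS1, which activates sulfate, had 679, 631 and 577 in WT and 5879, 4566 and 5264 in T12 (3.05 ± 0.14), and APR1, which reduces it, 203, 316 and 159 in WT and 1912, 1817 and 2935 in T12 (3.32 ± 0.26). AKN2, the kinase that makes the donor for sulfotransferases, rose by 3.02 and the sulfite reductase SIR by 1.48. Of the sulfate transporters, SULTR2;1 and SULTR4;2 rose by 0.59 and 1.1, whereas the root uptake carriers SULTR1;1 and SULTR1;2 did not pass. The sulfur starvation markers were uneven between T12 libraries. BGLU28 had 7.98, 81.8 and 15.3 in WT and 1102, 264 and 2898 in T12, so T12 replicate 3 stood far above replicate 2 (5.36 ± 0.97), and LSU2 rose by 4.40.

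Of 6 anthocyanin genes 5 rose and 0 fell, and the regulators of the flavonoid pathway were split, with 5 of 9 tested higher and 2 lower. Over the pathway, 18 of the 23 tested genes rose and 2 fell (median 2.15), beside 23.1% higher and 17.0% lower over all tested genes. TT19, UF3GT and PAP2 were under 10 normalized counts in every WT library, and passed the filter through mutant libraries alone. TT4, DFR, LDOX and PAP1, given below, did not reach 10 in all 3 WT libraries. They too passed only with mutant libraries counted. TT4, chalcone synthase and the entry to the pathway, had 6.76, 46.7 and 15.3 in WT and 470.2, 308 and 919 in T12 (4.81 ± 0.61). DFR and LDOX, of the anthocyanin branch, rose by 4.98 and 5.05, and TT19, a glutathione transferase that carries anthocyanin to the vacuole, had 0.614, 0 and 0 in WT and 60.5, 40.4 and 126 in T12 (5.87 ± 0.42). T12 replicate 3 was the highest and replicate 2 the lowest T12 library in these 4 genes. PAP1, the main activator, had 1.84, 11.7 and 3.82 in WT and 124, 130.2 and 176 in T12 (4.68 ± 0.47). MYBL2, a repressor of the pathway, had 584, 899.9 and 769.8 in WT and 74.2, 67.3 and 42.6 in T12 (-3.61 ± 0.26), and TTG1, a shared cofactor, was at -0.50. DFR, LDOX and TT19 had 3 reads or fewer in each WT library, and F3H and MYB11 had too few to test. The regulators called higher numbered 3 without T12 replicate 3, with a filter of 50 or in the fit of 6 libraries.

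**Figure D4:**
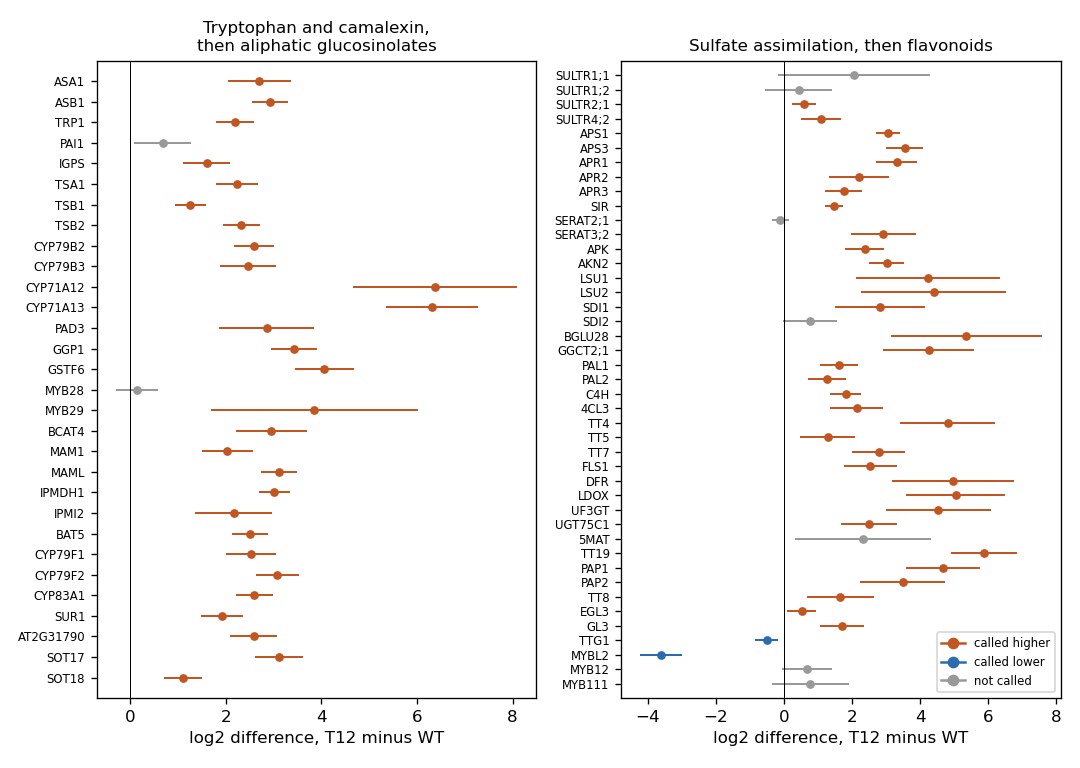
Differences T12 minus WT on the log2 scale with 95% confidence intervals from limma for tryptophan, camalexin and aliphatic glucosinolate genes (left) and sulfate and flavonoid genes (right), coloured by call. Of 73 genes 62 were called higher and MYBL2 and TTG1 lower.

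Heat shock genes rose, and the endoplasmic reticulum (ER) stress genes rose by less. Of 30 heat stress genes 24 rose (80%) and 0 fell (median 2.77), beside 23.1% higher and 17.0% lower over all tested genes. HSP70 had 199.6, 935 and 189.9 normalized counts in the WT libraries and 7207, 13475 and 11261 in the T12 libraries, a difference of 4.97 ± 0.58, with WT replicate 2 above the other WT libraries. HSP101, a disaggregase, rose by 4.15, HSP90.1 by 4.68 and HSFA2, the factor that prolongs the response, by 4.46. T12 replicate 1 was the lowest T12 library for each of these 4 genes. Among small heat shock proteins 10 of 13 rose, HSP17.6II by 5.47, and 6 were called higher with a filter of 50. HSP17.6A, at 2.58, did not pass, with WT replicate 2 inside the range of T12. The core heat shock element GAANNTTC lay in the 300 bases before the start of 10 of the 30 genes, beside 11.4% of the 29974 nuclear genes. Of 15 ER unfolded protein response genes 13 rose, with a median of 0.65, and 9 rose with scaling to nuclear reads. Its chaperone genes called higher numbered 10. They numbered 6 with that scaling, in the fit of 6 libraries or without WT replicate 3, T12 replicate 2 or T12 replicate 3. BIP2, the ER chaperone, had 2321, 2548 and 1859.5 in WT and 3774, 4951 and 4683 in T12 (1.00 ± 0.14), and its regulator BZIP28 rose by 1.02. The ER body is a defence compartment rich in beta-glucosidases: 7 of its 8 genes rose. BGLU18, a beta-glucosidase of wound-induced ER bodies, had 651, 1601 and 832 in WT and 26851, 19418 and 21953 in T12 (4.56 ± 0.29), and PYK10 (BGLU23), the most abundant, 35824, 29546 and 21343 in WT and 43792, 38254 and 46717 in T12, which did not pass (0.60 ± 0.22).

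Other hormone pathways changed in part. In ethylene synthesis the ACC synthase genes ACS6, ACS7 and ACS8 rose by 3.33, 2.61 and 2.66, while 0 of 6 signalling genes passed, though 4 were called lower with upper quartile or nuclear read scaling and 5 without T12 replicate 1. GA2OX6, which inactivates gibberellin, had 151, 129 and 149 in WT and 1957, 1272 and 965 in T12 (3.22 ± 0.26), GA2OX2 rose by 1.99, and the DELLA repressors RGL1 and RGL3 rose by 1.41 and 2.16. The gibberellin receptors were split, GID1B at 1.31, GID1A at -1.09 and GID1C at -1.19. In all, of 8 receptor and DELLA genes 3 rose, 2 fell and 3 did not pass, and 4 were called lower without WT replicate 2. Of 4 gibberellin synthesis genes 0 passed, and of 4 tested inactivation genes 2 rose and 1 fell. Of 9 brassinosteroid genes 5 fell (55.6%) and 0 rose, beside 17.0% lower and 23.1% higher over all tested genes. CPD, a biosynthetic oxidase, had 2119, 2127 and 3242 in WT and 722, 837 and 753 in T12 (-1.67 ± 0.16), BR6OX2, of the same pathway, was at -1.22 and BES1, the response factor, at -0.68. The calls of BR6OX2, BAS1 and BKI1 were lost without WT replicate 3, T12 replicate 2 or T12 replicate 3. Of 9 cytokinin response regulators ARR5 and ARR7 rose by 1.31 and 1.42, while the rises of ARR3 and ARR6 were lost with upper quartile or nuclear read scaling and without WT replicate 2, WT replicate 3, T12 replicate 2 or T12 replicate 3. Of 7 nitrogen genes NIA1, a nitrate reductase gene, and the nitrate transporter NRT1.1 fell, with differences of -1.02 and -0.66.

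Most marker genes of single cell types did not pass the test. The same holds over all tested genes, of which 40.2% were called, 23.1% higher and 17.0% lower. In bulk seedlings, fewer cells of a type and less RNA per cell cannot be told apart. For the endodermis, the inner barrier layer of the root, of 7 markers 4 fell and 0 rose, CASP1, which builds the Casparian strip, from 367, 292 and 196 to 103, 136 and 164 (-1.06 ± 0.24). The summed level of the 7 was 770 to 1236 normalized counts in WT and 609 to 763 in T12, and 2 of the 4 calls were lost without WT replicate 1, T12 replicate 1 or T12 replicate 2. MYB36 and SCR, regulators of that layer, were at 0.02 and 0.17. Of 4 root hair markers RHD6 rose, a call lost with upper quartile or nuclear read scaling, of 7 tested guard cell markers TMM fell (3 fell with nuclear read scaling), and of 6 xylem and 6 phloem markers 1 each rose, while 0 of 3 root cap and 0 of 4 tested shoot meristem markers passed. Of 4 mesophyll markers RCA rose, and the list's summed level overlapped, at 47483 to 77627 in WT and 63071 to 70541 in T12, though 2 of the 4 were called lower without WT replicate 1. Seed storage transcripts varied widely within groups: the summed level was 1242, 5364 and 84.1 in WT and 2234, 5161 and 5642 in T12, so the groups overlapped, and 1 of 6 tested markers, OLEO2, rose (3.38 ± 0.65). Without WT replicate 2 all 6 were called higher. The regulators LEC1 and LEC2 were at or near 0. The part of these markers in the gene groups above was not tested. As a check of the scale, 8 of 10 reference genes used to normalise expression did not pass, PP2AA3 at -0.18 ± 0.09 and UBQ10 at 0.18 ± 0.17, while UBC9 rose by 0.76 and GAPC1, whose call was lost with upper quartile or nuclear read scaling, by 0.76. Without WT replicate 2 or with nuclear read scaling, 3 reference genes were called lower, and 2 with upper quartile scaling.

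**Figure D5:**
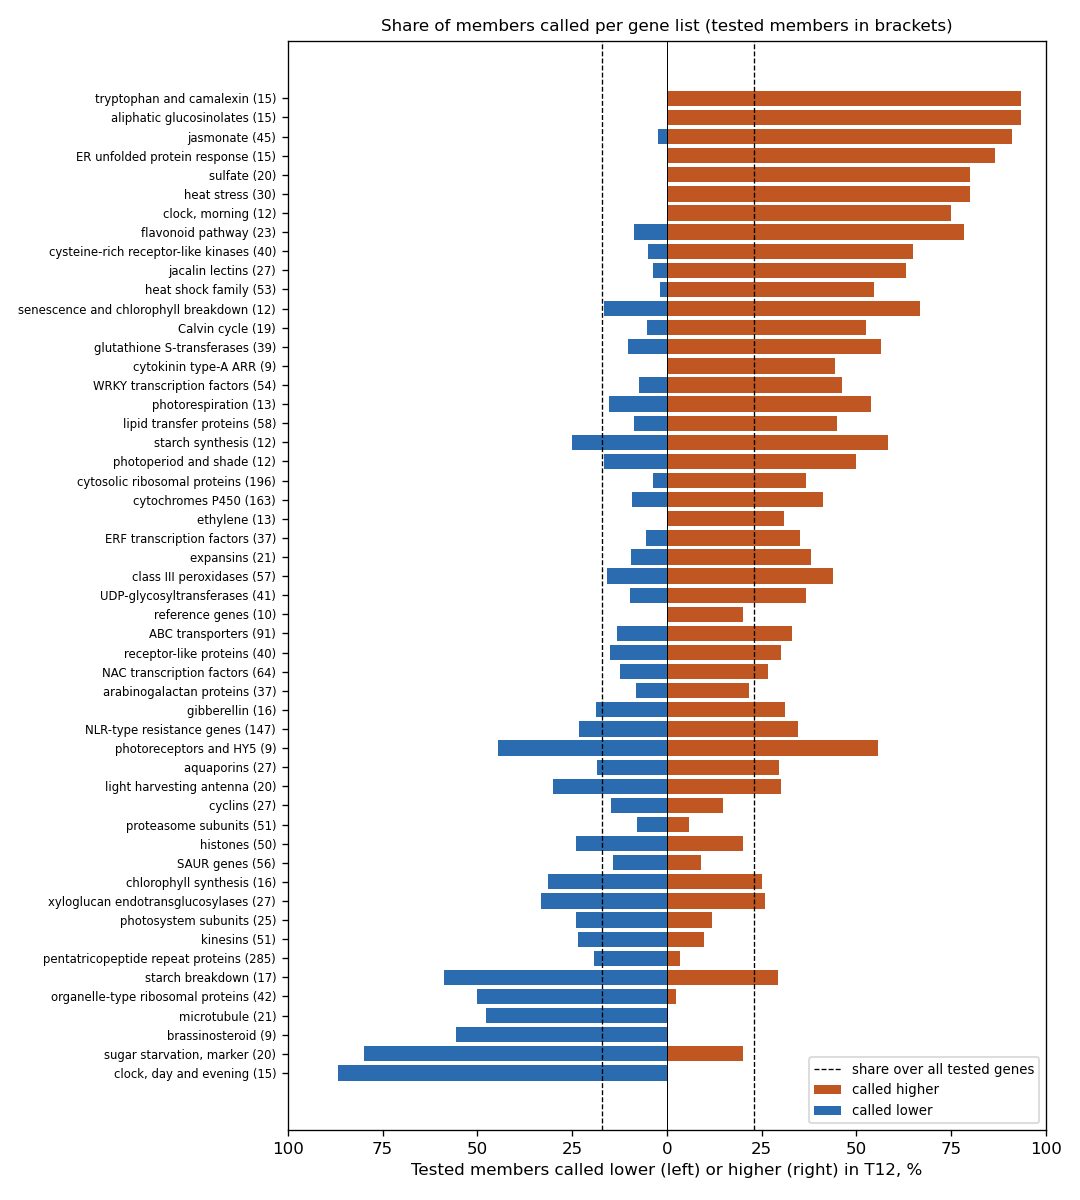
Share of tested members called higher (right) or lower (left) in T12 for each gene list and gene family, with the number of tested members in brackets. The dashed lines mark the shares over all 20871 tested genes, 23.1% higher and 17.0% lower.

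The largest changes by the rule for named genes went beyond these lists. They were taken from 3224 rises and 2596 falls that met its conditions, and 15 of each are named. The largest rise was AT3G44870, a methyltransferase-like gene, with 1.84, 11.7 and 0 normalized counts in the WT libraries and 929, 941 and 1086 in the T12 libraries (8.22 ± 0.72), and its neighbour FAMT, which methylates farnesoic acid, had 4.3, 35.1 and 6.37 in WT and 2303, 1294 and 1074 in T12 (7.04 ± 0.64). TAT3 and JAZ8 of the jasmonate list were also among the 15, with JAL23, a jacalin lectin gene and the largest rise of the ER body list (6.45). Others were HSD2, a steroid dehydrogenase-like gene (7.48), CYP82C2 (7.27), PEN1, arabidiol synthase (7.14), AT1G65490 (7.36), AT1G54020, a lipase-like gene (6.77), and AT1G66860 (6.75). The remaining 4 were AT4G19500, a resistance gene of the nucleotide-binding leucine-rich repeat (NLR) class (6.82), AT2G26380 (6.74), AT3G47250 (6.73) and AT3G43740 (6.67). WT libraries held few reads of these 15 genes, with 13 or fewer in WT replicate 2, so the sizes are loosely set. No gene of these 15 reached 10 normalized counts in all 3 WT libraries, so each passed the filter only with mutant libraries counted. AT1G65490, CYP82C2, AT2G26380 and AT3G43740 were under 10 in every WT library.

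Among the 15 largest falls were AT2G33830, BT2, DYL1, COR27 and FKF1, described above. AT3G28320, of a family of unknown function, had 722, 619 and 686 normalized counts in the WT libraries and 1.14, 3.21 and 3.93 in the T12 libraries (-7.58 ± 0.54), and AT1G63880, an NLR-class gene, 177, 304 and 275 in WT and 1.71, 2.56 and 2.24 in T12 (-6.29 ± 0.48). Both were near 0 in every T12 library. These genes and AT1G07050, given below, were under 10 normalized counts in every mutant library, and passed the filter through the WT libraries alone. RbcX1, also given below, could not have passed without WT libraries. WT replicate 2 held 53 reads of AT3G28320, 26 of AT1G63880 and 19 of AT1G07050. MEE14 had 6044, 4967 and 8135 in WT and 79.9, 81.4 and 55.0 in T12 (-6.44 ± 0.22). WCRKC1, a thioredoxin gene, was at -6.10, AT3G62550 at -5.92, AT1G07050, with a CCT motif like clock regulators, at -5.47, and RbcX1, a Rubisco assembly chaperone gene, at -5.45. COR15B, a cold-regulated gene, was at -5.24 and FBA5, an aldolase gene, at -5.16. AT1G07017, a non-coding RNA gene, had 165, 11267 and 474 in WT and 3.99, 1.92 and 2.24 in T12, with WT replicate 2, the library with 95.7% ribosomal RNA, far above the other WT libraries and all 3 of them above T12 (-8.05 ± 1.23).

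By difference in mean level, the top rise was AT7SL-1, the RNA of the signal recognition particle, with 13230, 14925 and 16005 normalized counts in the WT libraries and 40067, 43371 and 48003 in the T12 libraries (1.57 ± 0.21). NIT1, a nitrilase gene, had 2929, 3097 and 3894 in WT and 25512, 21695 and 22348 in T12 (2.82 ± 0.14), and ADC2, which makes the polyamine precursor agmatine, 2922, 3296 and 2456 in WT and 21953, 14665 and 23086 in T12 (2.76 ± 0.20). The HSP70-family genes HSC70-1 and AT3G09440 rose by 1.18 and 3.41, and BGLU18, LOX2, RCA, HSP70 and GUN5 complete the 10. Among falls, AT3G15450 had 14349.7, 7608 and 17077 in WT and 469, 479 and 290.5 in T12 (-4.93 ± 0.32), CCL, annotated as a CCR-like protein gene, 8516, 10296 and 12534 in WT and 270.5, 423 and 352 in T12 (-4.91 ± 0.18), and BGAL1, a beta-galactosidase gene, 10953, 9268 and 13718 in WT and 1179, 1592 and 1400.3 in T12 (-3.02 ± 0.16). TIP2, a vacuolar water channel gene, was at -1.73, XTH4, a wall-modifying enzyme gene, at -2.49, and the photosystem I antenna gene LHCA3 at -0.80. CAB1, LHB1B1, SEN1 and AT2G33830 complete these 10. Every T12 library was above or below every WT library in these genes, as the rule requires.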

How the data were processed

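Whole 9-day-old seedlings of WT, T12 and T34 were sequenced in 3 libraries each. Per the submitters' processing notes, reads were trimmed (cutadapt 1.8.1), aligned to TAIR10 (HISAT2 2.1.0), counted per gene (featureCounts 1.6.2) and normalized (DESeq2 1.22.2). How strand and multiply matching reads were handled is not given in the sources used here. The deposited values are normalized counts, a signal made by the authors by dividing the read count of a gene by a size factor per library. All of these values came out whole, within 0.01, when divided by what 1 read is worth. These recovered reads gave 20963358 to 30438933 reads per library, and edgeR 4.0.16 and DESeq2 1.42.0 used them as alternatives. The labels number the libraries in 1 run over the groups, with no replicate number within a group, so replicates are named in column order.

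Genes at 10 or more normalized counts in at least 3 of the 9 libraries were tested with limma 3.58.1 in R 4.3.3 on log2(normalized count + 1), with trend, all 9 libraries in the fit and Benjamini-Hochberg adjustment over all 20871 genes. A gene was called at an adjusted p under 0.05. The steps were tested on simulated data. Alternatives were 3 other scalings, a pseudocount of 10, no filter or one of 50, the 6 libraries alone, array weights and each library left out in turn. The rule for named genes took the 15 largest rises and falls by log2 difference and the 10 by mean level among called nuclear genes with a mean of at least 100, groups that do not overlap and at least 10 reads in each library of the higher group, leaving out ribosomal RNA and transposable element genes. In the lists it took the members that carry each step. Genes named beyond it were chosen after their values were seen. The members and lists were chosen with earlier results of these data known, so counts are given without a test over a list. Gene symbols come from the table and from RefSeq, matched by locus for 29991 of 30271 genes. Promoter windows of 300 bases come from RefSeq's TAIR10.1. Intervals cover the spread between libraries only, and reads carry no molecular identifiers.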

Additional observations from a re-analysis of the deposited data

How the results depend on the processing

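The total of 8382 called genes lay between 6477 and 11755 under the other scalings, filters, pseudocount, samples and tests tried, and between 6337 and 10181 when 1 of the 6 libraries was left out. The fit of 6 libraries gave the 6477 and kept 77.1% of the reported calls. In that fit rises went from 4 to 2 for cytokinin response regulators and from 10 to 6 for histone-type genes. Kinesin rises went from 5 to 3, cyclin rises from 4 to 2 and glutathione transferase falls from 4 to 2. The counts without 1 library ran from 3773 to 5743 for genes called higher and from 2564 to 4438 for genes called lower. The same ranges were 2650 to 3278 for rises and 1226 to 1437 for falls of at least 1. Genes called lower numbered 5339 with limma array weights, which gave WT replicate 2 a weight of 0.0855. The cause was not tested. In every setting, each gene called in both that setting and the reported fit kept its direction. Relative to the deposited scaling, upper quartile factors moved the median of all tested genes by -0.11 and scaling to nuclear reads by -0.15, and both turned which direction had more calls. The edgeR test on recovered reads called 5261 genes higher and 4332 lower, and DESeq2 5038 and 3877. The edgeR test without WT replicate 2, chosen after the data were seen, called 5450 and 4742. Of the 49 genes named for size, 46 of which were tested without a WT replicate, CAB1 alone lost its call, with no filter, in the fit of 6 libraries and without T12 replicate 1. Of 374 genes named for size or called in the lists, families left out, up to 42 lost their call in a setting and 0 reversed. The shallow depth of WT replicate 2 limits rises from low WT levels. No paired analysis was possible because the labels number the libraries in 1 run and give the groups no shared replicate numbers.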

Other observations

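Gene families found by their annotated names are given beside 23.1% of all tested genes called higher and 17.0% called lower. Of 39 tested glutathione transferase genes 22 were called higher and 4 lower in T12 (median 1.66). GSTU5 had 252, 245 and 293 normalized counts in the WT libraries and 10659, 7176 and 4936 in the T12 libraries (4.78 ± 0.27), and GSTU6 and GSTF7 rose by 4.97 and 4.11. Of 40 cysteine-rich receptor-like kinase genes 26 rose and 2 fell (median 1.57), CRK10 from 83.5, 93.5 and 105 to 897, 1294 and 1129 (3.54 ± 0.15), and of 27 jacalin lectin genes 17 rose and 1 fell (median 1.52), JAL33 by 4.27. Of 54 WRKY factors 25 rose and 4 fell, WRKY18 at 4.15 and WRKY3 at -1.63. Of 147 NLR-type genes 51 rose and 34 fell, AT4G19510 at 5.46 and AT1G58602 at -3.25; these genes vary between accessions, and accession and mutation cannot be told apart here. Cell wall and water channel families were split: of 27 xyloglucan-modifying enzyme genes 7 rose and 9 fell, XTH15 going from 1806, 2080.3 and 2957 to 154, 156 and 137 (-3.90 ± 0.20) and XTR6 rising by 3.64, and of 27 aquaporin genes 8 rose and 5 fell, PIP1C at -1.90 and PIP1;4 at 1.75. Of 57 class III peroxidase genes 25 rose and 9 fell, with AT2G37130 at -2.38. Among cyclins 4 of 27 rose and 4 fell, 14.8% each way and so below both shares over all tested genes. Among kinesins 5 of 51 rose, 9.80% beside 23.1% over all tested genes, and 12 fell, beside 17.0%. With scaling to nuclear reads, kinesin rises numbered 2 and falls 18, cyclin rises 2, WRKY falls 9 and aquaporin falls 8, and with upper quartile scaling kinesin rises numbered 3, cyclin rises 2 and WRKY and aquaporin falls 8 each. Some of these counts also turned on 1 library. Falls among WRKY genes numbered 2 without T12 replicate 2 or 3 and 6 without WT replicate 3, those among glutathione transferase genes 2 and 1 without T12 replicates 1 and 2, and those among peroxidase genes 6 without either. Aquaporin falls numbered 3 without WT replicate 3 or T12 replicate 1. Cyclin rises numbered 2 without T12 replicate 1 or 2 and falls 6 without WT replicate 2, and kinesin rises numbered 2 without WT replicate 3 or T12 replicate 3 and 3 without T12 replicate 2.

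Of 42 organelle-type ribosomal protein genes 21 fell and 1 rose (median -0.50), or 24 and 4 without WT replicate 2. AT5G24490, annotated as a 30S ribosomal protein gene, stood apart, with 5886, 7784 and 8667 in WT and 577, 489 and 478 in T12 (-3.84 ± 0.15). Of 285 pentatricopeptide repeat genes, whose products process organelle RNA, 55 fell and 10 rose (median -0.38), so the 19.3% that fell is near the 17.0% over all tested genes. With scaling to nuclear reads 97 fell and 5 rose, with upper quartile scaling 83 and 6, and 32 and 34 fell without T12 replicates 1 and 2. The fit of 6 libraries left 32 falls and 5 rises. The 10 rises became 6, 5 and 6 without T12 replicates 1, 2 and 3. Of 196 cytosolic ribosomal protein genes 72 rose and 7 fell (median 0.36), but 38 rose and 10 fell with scaling to nuclear reads, 46 rose with upper quartile scaling, and 46 and 36 rose without T12 replicates 2 and 3 and 11 fell without WT replicate 2. In the fit of 6 libraries 37 rose and 5 fell. Of 141 mitochondrial genes tested 63 were called higher and 0 lower, and of 126 chloroplast genes 4 higher and 19 lower. Of 16 small nuclear RNA genes 12 rose (median 2.38), and of 71 small nucleolar RNA genes 32 rose (median 1.52). These short RNAs depend on how the library was prepared, and the libraries differed in ribosomal RNA as given above. Its part was not tested. Of 50 histone-type genes 10 rose (6 without T12 replicate 3 or with scaling to nuclear reads) and 12 fell (19 without WT replicate 2), HIS1-3, a linker histone variant gene of stressed plants, going from 1677, 1729.7 and 1852 to 90.7, 157 and 306 (-3.41 ± 0.35). Of 19 tested transposable element genes 3 rose and 1 fell, or 4 fell with upper quartile or nuclear read scaling.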
